A study of Mus musculus with 16 samples.

Results

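The Dec repressors and the Id proteins were followed in slices of the suprachiasmatic nucleus (SCN), the circadian pacemaker of the hypothalamus, after addition of vasoactive intestinal peptide (VIP). The 6 genes are Bhlhe40 and Bhlhe41, which encode DEC1 and DEC2, and Id1, Id2, Id3 and Id4. All their probes in the normalised array data were used. Of the 6 genes, 5 were measured, by 8 probes, out of 10620 named genes and 19893 probes in all. Bhlhe41 had no named probe here, so nothing is reported on its level. Id2 was measured by 3 probes, Id4 by 2, and Bhlhe40, Id1 and Id3 by 1 each. Bhlhe40 and Id2 were chosen by their values on these same arrays. Bhlhe40 was selected on a higher level in CT12 VIP than in CT12 Veh, and Id2 on a higher level in CT16 VIP than in CT12 VIP, 2 h and 6 h after VIP, so these values are given as a description, with no test.

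The slices came from C57BL/6J mouse pups of postnatal days 8 to 11 and were kept as organotypic cultures, which hold neurons and glia of the SCN and of the tissue beside it. Total RNA was hybridised to Illumina MouseWG-6 v2 arrays, giving 16 arrays in 4 groups of 4. CT10 slices were untreated and were collected at circadian time (CT) 10, where CT12 is the peak of the PER2::LUC reporter of clock phase. CT12 Veh slices received vehicle (culture medium) at CT10 and were collected 2 h later. VIP was added at CT10 to the remaining slices, at 1 µM according to the sample labels. These were collected 2 h later (CT12 VIP) or 6 h later (CT16 VIP). The sources differ on the dose of VIP and on the circadian time of the last collection, for which the labels were followed. No CT16 vehicle group was analysed here, so time after VIP and circadian time cannot be told apart in CT16 VIP. Whether separate animals gave the slices of a group is not stated, so p-values measure only the spread between these samples.

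Both families belong to the helix-loop-helix transcription factors, which act as dimers. DEC1 and DEC2 bind E-boxes, the sites through which CLOCK and BMAL1 activate clock genes, and repress transcription there, and Bhlhe40 is known as a gene that light induces in the SCN. Id proteins lack the basic region that contacts DNA. They bind E proteins and other partners and hold them off DNA, and their genes are classic targets of bone morphogenetic protein (BMP) signalling through SMAD proteins. Mice that lack Id2 have been described to adjust faster to a shifted light cycle.

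In the mouse genome (GRCm38.p6), Bhlhe40 lies at chr6:108660629-108666925, Bhlhe41 at chr6:145858243-145865420, Id1 at chr2:152736251-152737410, Id2 at chr12:25093799-25096092, Id3 at chr4:136143822-136145392 and Id4 at chr13:48261116-48266028. The 250 bases before the start of Id2 are printed because Id2 carried the largest difference between 6 h and 2 h of VIP among the 8 probes. Those of Id3 and Id4, whose groups overlapped in every comparison, are set beside them. The sequences are those of RefSeq on GRCm38.p6, from 5′ to 3′ on the strand of the gene. Capitals mark a match on either strand to CCAAT (the CCAAT box), TGACG (a CRE half-site, the core bound by CREB), GGCGCC (a GC-rich site of SMAD proteins) or CACGTG (the E-box of the clock).
Id2, chr12:25096093-25096342, minus strand: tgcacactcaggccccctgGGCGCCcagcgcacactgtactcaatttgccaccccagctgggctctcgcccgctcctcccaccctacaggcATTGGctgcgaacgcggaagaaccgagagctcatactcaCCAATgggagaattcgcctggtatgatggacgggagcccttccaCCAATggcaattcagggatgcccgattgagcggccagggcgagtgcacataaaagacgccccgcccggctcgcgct
Id3, chr4:136143572-136143821, plus strand: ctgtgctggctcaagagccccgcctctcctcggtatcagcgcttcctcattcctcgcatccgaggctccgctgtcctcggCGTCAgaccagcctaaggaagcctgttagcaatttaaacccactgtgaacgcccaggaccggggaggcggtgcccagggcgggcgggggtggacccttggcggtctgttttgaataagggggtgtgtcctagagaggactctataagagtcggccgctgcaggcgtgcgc
Id4, chr13:48260866-48261115, plus strand: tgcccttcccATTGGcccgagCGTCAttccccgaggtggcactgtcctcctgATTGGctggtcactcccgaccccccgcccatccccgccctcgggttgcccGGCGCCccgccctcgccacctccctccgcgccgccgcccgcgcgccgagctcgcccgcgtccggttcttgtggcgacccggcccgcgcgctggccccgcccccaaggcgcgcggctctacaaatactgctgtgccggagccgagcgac

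The window of Id2 held 3 matches to CCAAT and 1 to GGCGCC, and none to TGACG or CACGTG. The window of Id4 held 2 matches to CCAAT and 1 each to TGACG and GGCGCC. Id3 had 1 match, to TGACG. Over all 32851 RefSeq promoter windows of this length, CCAAT was present in 33.8%, TGACG in 17.8%, GGCGCC in 9.59% and CACGTG in 6.02%. The looser E-box CANNTG, which also covers CACGTG, was present in 66.2% of windows and had 1 match in that of Id2 and none in those of Id3 and Id4. The full CRE, TGACGTCA, which contains TGACG, was present in 1.55% of windows and in none of these 3. A window was at hand for 4 of the 6 genes. That of Bhlhe41 held 1 match to CACGTG and 1 to CCAAT. These matches describe the letters of the windows only.

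Levels below are the deposited values normalised over the 16 arrays. They are on a variance-stabilised scale close to log2, which compresses the differences of dim probes, and levels of different probes are not compared. A probe was called detected on an array at a detection p of 0.01 or less against the negative control probes. The share of all probes whose groups do not overlap was not counted in any comparison. Statements below that groups overlap or lie apart are therefore a description of the arrays, and nothing is read from them. The arrays detected 8019 to 16923 probes each, and 4 arrays fell under 10000, namely CT16 VIP 3 and 4, CT12 VIP 1 and CT12 Veh 1. The differences that rest on these arrays are also given without them. Differences carry their standard error (SE) from limma, and adjusted p-values are by the Benjamini-Hochberg method over all probes of the table. All 9 neuronal markers were measured, and in each group 8 of them were detected on every array. All 11 SCN neuron markers were measured, 5 to 7 of them were detected on every array of a group, and Six6, a transcription factor of the SCN, was detected on 1 array of 16. A level in such bulk tissue does not separate fewer cells of a type from less RNA per cell.

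Bhlhe40 was at a higher level in all 8 VIP arrays than in any of the 8 arrays without VIP. The probe for Bhlhe40 (ILMN_1249378) read 9.71, 9.64, 9.69 and 9.73 in the 4 CT12 VIP slices, against 8.93, 9.30, 8.95 and 8.79 in CT12 Veh slices. In CT16 VIP it read 9.88, 9.67, 9.57 and 9.50, and in CT10 it read 8.64, 8.86, 8.72 and 8.76. The CT12 VIP slices lay within the narrowest range of the 4 groups, and the second CT12 Veh slice was the highest of the arrays without VIP. The probe was detected on all 16 arrays, with raw signals of 840 to 1021 in CT12 VIP and 429 to 713 in CT12 Veh.

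Bhlhe40 averaged 9.69 ± 0.043 in CT12 VIP and 8.99 ± 0.22 in CT12 Veh (SD, n = 4 each). On the values normalised for this pair of groups, it was 0.71 higher in CT12 VIP than in CT12 Veh (SE 0.087). In the comparison CT12 VIP vs. CT12 Veh, 1 of the 7 member probes in the table (Bhlhe40) passed an adjusted p of 0.05 as higher and 2 (both Id2) as lower, against 2.73% of all 17605 probes higher and 1.47% lower. Nothing is read from these counts, since this comparison helped to choose the genes. Across 15 alternatives of normalisation, filter and arrays left out, the Bhlhe40 difference lay between 0.64 and 0.88. It was 0.68 (SE 0.0998) without the arrays under 10000 detected probes.

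At 6 h after VIP, Bhlhe40 was above the groups without VIP, which were collected at CT10 and CT12. Its level without VIP at CT16 was not measured, so circadian time also differs in these comparisons. Bhlhe40 averaged 9.66 ± 0.16 in CT16 VIP and 8.75 ± 0.092 in CT10 (SD, n = 4 each), a difference of 0.91 (SE 0.092, adjusted p = 1.12e-06 by limma). This is the comparison for Bhlhe40 that shares no arrays with the one that singled it out. In it 5 of the 8 member probes (Bhlhe40, Id1 and the 3 of Id2) were called higher and 0 lower, against 3.08% and 2.72% of all 19893 probes. Nothing is read from that count, since the Id2 probes were chosen, and Id1 was detected, through the CT16 VIP arrays. Over 22 alternatives the difference lay between 0.83 and 1.18, with an adjusted p of at most 0.000149. Against CT12 Veh, Bhlhe40 in CT16 VIP was 0.66 higher (SE 0.092), and CT12 VIP was 0.95 above CT10 (SE 0.092). Without the arrays under 10000 detected probes, CT16 VIP was 1.03 above CT10 (SE 0.11, adjusted p = 2.08e-05 by limma) and 0.76 above CT12 Veh (SE 0.12), and CT12 VIP was 0.94 above CT10 (SE 0.098). In CT12 VIP vs. CT10, 1 of the 8 member probes (Bhlhe40) was called higher and 0 lower, against 2.01% and 0.302% of all probes, and nothing is read from it, since Bhlhe40 was chosen on these CT12 VIP arrays.

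Between the 2 VIP times the Bhlhe40 levels overlapped. CT16 VIP differed from CT12 VIP by -0.039 (SE 0.081) on the pairwise values, and the SD of CT16 VIP (0.16) was wider than that of CT12 VIP (0.043). Within CT16 VIP the order of the Bhlhe40 levels (9.88, 9.67, 9.57 and 9.50) was also the order of the detected probes per array (16923, 11562, 9226 and 8019), and the part of this in the result was not tested. Without the arrays under 10000 detected probes the difference was 0.088 (SE 0.091), of the opposite sign and again within its error. CT12 Veh and CT10 overlapped as well, at a difference of 0.25 (SE 0.092). In order of their means the groups ran from CT12 VIP and CT16 VIP, which did not separate, to CT12 Veh and CT10, which did not separate either.

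**Figure D1:**
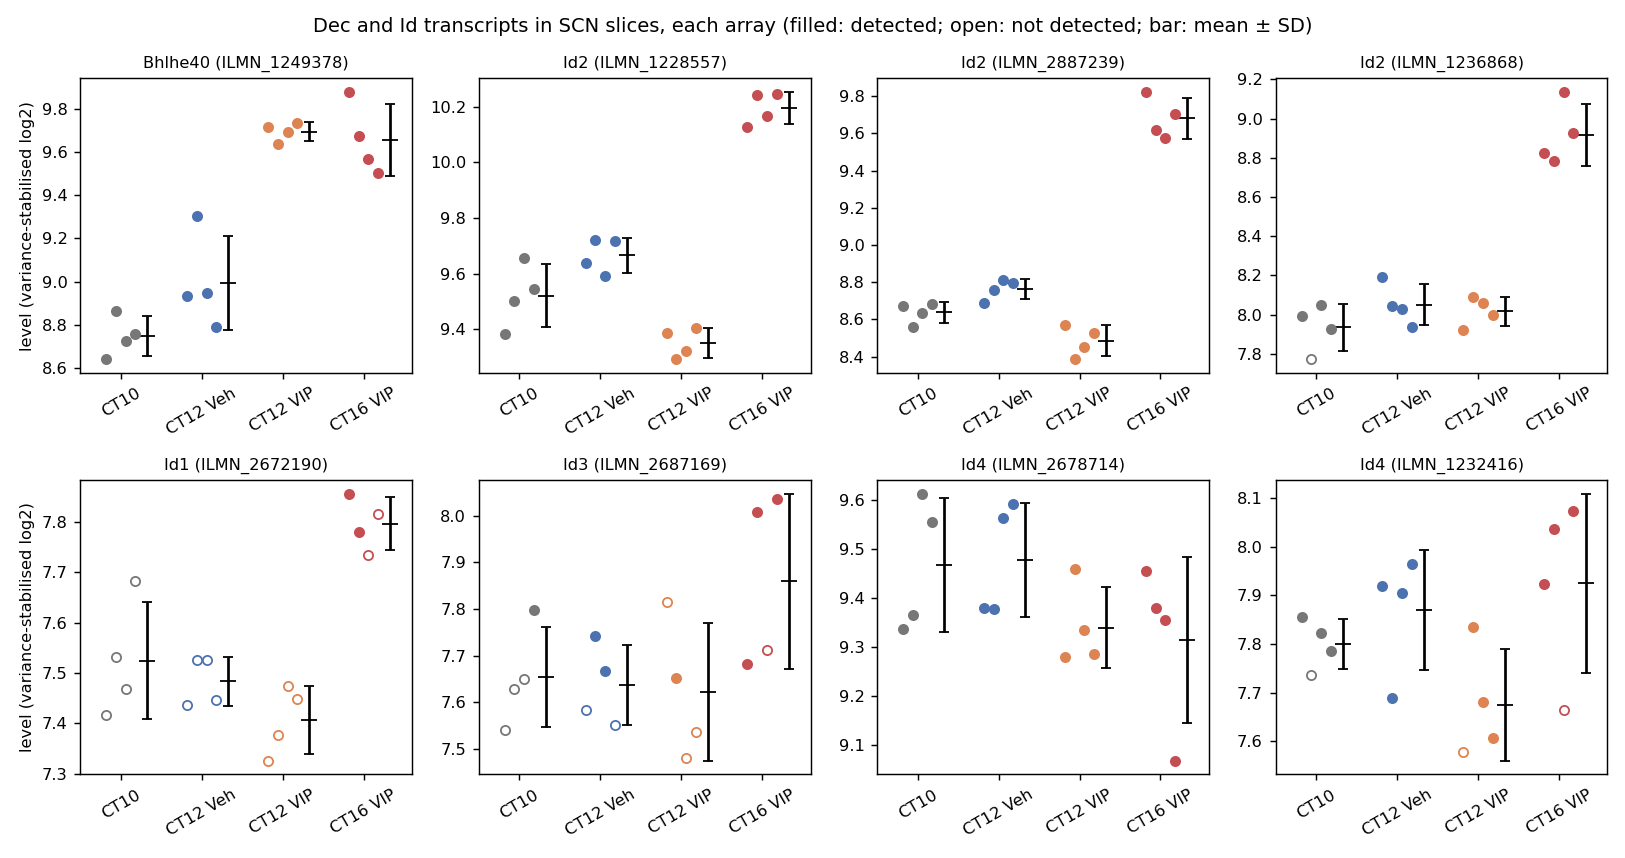
Level of each probe on each of the 16 arrays (vertical axis, variance-stabilised log2, its own range per panel) by group, with points filled where the probe was detected and the bar giving the mean ± SD of 4 arrays. Bhlhe40 was at 9.64 to 9.73 in CT12 VIP, above every array of CT12 Veh and CT10, and the 3 Id2 probes had their 4 highest arrays in CT16 VIP.

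Id2 was highest at 6 h, where all 3 probes lay above every array of the other groups, and at 2 h it was below vehicle at 2 of its 3 probes. The probe ILMN_1228557 had the highest mean of the 3. It read 10.13, 10.24, 10.17 and 10.25 in CT16 VIP slices, against 9.39, 9.29, 9.32 and 9.40 in CT12 VIP slices. It read 9.64, 9.72, 9.59 and 9.72 in CT12 Veh and 9.38, 9.50, 9.65 and 9.55 in CT10. The CT12 VIP slices thus lay below every CT12 Veh slice and overlapped the CT10 slices.

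The probe ILMN_2887239 of Id2 had the same order of groups. It read 9.82, 9.62, 9.58 and 9.70 in CT16 VIP, against 8.57, 8.39, 8.45 and 8.53 in CT12 VIP. It read 8.69, 8.76, 8.81 and 8.80 in CT12 Veh and 8.67, 8.56, 8.64 and 8.68 in CT10. Again no CT16 VIP slice overlapped another group, and no CT12 VIP slice reached a CT12 Veh slice.

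The remaining Id2 probe, ILMN_1236868, is listed under the older symbol Idb2. It read 8.82, 8.78, 9.14 and 8.93 in CT16 VIP, against 7.92, 8.09, 8.06 and 7.999 in CT12 VIP. It read 8.19, 8.05, 8.03 and 7.94 in CT12 Veh and 7.99, 7.77, 8.05 and 7.92 in CT10. Its CT16 VIP slices stood clear of the rest, whereas the 3 other groups overlapped each other, so this probe did not show the lower level at 2 h. It was detected on 15 of 16 arrays, and the other Id2 probes on all 16.

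On the values normalised for CT16 VIP with CT12 VIP, the 3 Id2 probes were 0.85 (SE 0.065), 1.19 (SE 0.074) and 0.89 (SE 0.082) higher in CT16 VIP, in the order in which they were introduced. In this comparison 4 of the 8 member probes (3 of Id2 and that of Id1) passed the threshold as higher and 0 as lower, against 0.832% of all 19110 probes higher and 0.958% lower. Nothing is read from these counts either, since this comparison was used to choose Id2. Against CT12 Veh, the probes in CT16 VIP were 0.53, 0.92 and 0.87 higher (SE 0.063, 0.064 and 0.080), and against CT10 they were 0.67, 1.04 and 0.98 higher (the same SE). Without the arrays under 10000 detected probes, CT16 VIP was 0.85 (SE 0.087), 1.26 (SE 0.093) and 0.75 (SE 0.084) above CT12 VIP, 0.51, 0.93 and 0.80 above CT12 Veh and 0.66, 1.08 and 0.87 above CT10. The size depended on the background correction, with 0.98, 1.64 and 1.58 for CT16 VIP vs. CT12 VIP on background-corrected (neqc) values.

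At 2 h, CT12 VIP was lower than CT12 Veh by 0.32 (SE 0.063) at ILMN_1228557 and by 0.29 (SE 0.065) at ILMN_2887239, whereas ILMN_1236868 differed by -0.036 (SE 0.069). The mean of the 3 probes differed by -0.21 (SE 0.058). Over the alternatives run at single probes, the first lay between -0.38 and -0.30 and the next between -0.44 and -0.25, while ILMN_1236868 lay between -0.076 and 0.046. The calls of the first 2 probes as lower were lost on neqc values and on log2 signals without background correction, and that of ILMN_2887239 also without CT12 VIP 2. They held in 14 of 16 alternatives for ILMN_1228557 and in 12 of 15 for ILMN_2887239. Nothing is read from these counts, since Id2 was chosen on a higher level in CT16 VIP than on these same CT12 VIP arrays. Without the arrays under 10000 detected probes the 3 differences from CT12 Veh were -0.34 (SE 0.073), -0.34 (SE 0.072) and 0.046 (SE 0.072). Against CT10, CT12 VIP differed by -0.17 (SE 0.063), -0.15 (SE 0.064) and 0.081 (SE 0.080) at the 3 probes.

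Between the groups without VIP, no Id2 probe passed the test. CT12 Veh differed from CT10 by 0.14 (SE 0.063), 0.13 (SE 0.064) and 0.12 (SE 0.080) at the 3 probes, at limma adjusted p-values of 0.93, 0.96 and 0.989. The difference had the same sign at all 3, which measure the same gene on the same arrays. ILMN_2887239 had no overlap between the groups, but the share of all probes without overlap was not counted, so nothing is read from it. In this comparison 0 of 8 member probes were called, against 0.00503% (1 of 19893 probes), with 1036 probes at an unadjusted p under 0.05.

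**Figure D2:**
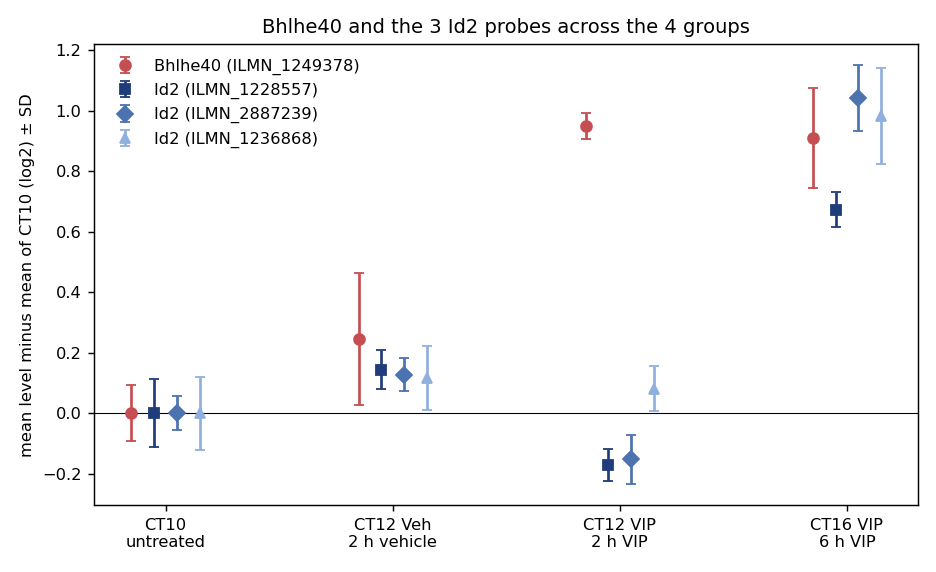
Mean level of the Bhlhe40 probe and the 3 Id2 probes minus the mean of the same probe in CT10 (vertical axis, log2, bars ± SD of 4 arrays), by group. In CT12 VIP Bhlhe40 stood at 0.95 and the Id2 probes at -0.17, -0.15 and 0.081, whereas in CT16 VIP Bhlhe40 stood at 0.91 and the Id2 probes at 0.67, 1.04 and 0.98.

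Set side by side, the 2 genes differed in when their level was higher with VIP. After 2 h, Bhlhe40 was 0.71 above CT12 Veh, and the Id2 probes differed by -0.32, -0.29 and -0.036. After 6 h, both were above CT12 Veh, Bhlhe40 by 0.66 and the Id2 probes by 0.53 to 0.92. From 2 h to 6 h, Bhlhe40 changed by less than its SE, and the Id2 probes differed by 0.85 to 1.19. These differences share the CT12 VIP or CT12 Veh arrays, and no test was made between the genes.

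Id1, a relative of Id2 with wide roles in progenitor and endothelial cells, was read near the detection limit on every array. Its probe (ILMN_2672190) read 7.86, 7.78, 7.73 and 7.82 in CT16 VIP, against 7.32, 7.38, 7.47 and 7.45 in CT12 VIP. It read 7.44, 7.53, 7.53 and 7.45 in CT12 Veh and 7.42, 7.53, 7.47 and 7.68 in CT10. No array of another group reached the lowest CT16 VIP array. The probe was detected only on CT16 VIP 1 and CT16 VIP 2, and the undetected arrays CT16 VIP 3 and CT16 VIP 4 are among those with fewer than 10000 detected probes.

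Because Id1 was detected on no array of CT12 VIP, CT12 Veh or CT10, it entered the normalised table through CT16 VIP alone, and its differences are a description with no test. The mean of CT16 VIP was set against, per array of the other group, the higher of the lowest detected signal and the Id1 signal. On this measure Id1 was 1.08-fold higher in CT16 VIP than in CT12 Veh or CT10, and 1.11-fold higher than in CT12 VIP. These values are not lower limits, since Id1 was detected on only 2 CT16 VIP arrays and the undetected ones entered as measured. They carry no sampling error, and the entry of Id1 through CT16 VIP favours a higher level there. The measured means were 7.80 in CT16 VIP, 7.41 in CT12 VIP, 7.48 in CT12 Veh and 7.52 in CT10. The size of the difference depended on the background correction, with a pairwise difference between CT16 VIP and CT12 VIP of 0.39 (SE 0.065) that became 0.69 on log2 signals without background correction and 1.32 on neqc values. It was also 0.39 (SE 0.085) without the arrays under 10000 detected probes.

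In CT16 VIP vs. CT12 Veh, 5 of 8 member probes passed as higher and 0 as lower, against 2.65% and 2.28% of all probes. Nothing is read from this count, since Bhlhe40 was chosen against these CT12 Veh arrays, Id2 was chosen on these CT16 VIP arrays and Id1 passed the detection filter through them. At 2 h Id1 was not in the table normalised for CT12 VIP with CT12 Veh, and it was not well above background in CT12 VIP, CT12 Veh or CT10, so no difference between these groups is given.

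Id3, another inhibitor of the family, read 7.68, 8.01, 7.71 and 8.03 in CT16 VIP, against 7.82, 7.65, 7.48 and 7.54 in CT12 VIP (ILMN_2687169). In CT12 Veh it read 7.58, 7.74, 7.67 and 7.55, and in CT10 7.54, 7.63, 7.65 and 7.80. The groups overlapped, with the 2 highest arrays of all in CT16 VIP. The probe was detected on 3 of 4 arrays in CT16 VIP, 1 in CT12 VIP, 2 in CT12 Veh and 1 in CT10. CT16 VIP differed from CT12 VIP by 0.24 (SE 0.099). It differed from CT12 Veh by 0.22 (SE 0.089, adjusted p = 0.183 by limma) and from CT10 by 0.21 (SE 0.089, adjusted p = 0.206 by limma). After 2 h the difference from CT12 Veh was -0.022 (SE 0.078). Without the arrays under 10000 detected probes, Id3 differed by 0.29 (SE 0.11) between CT16 VIP and CT12 VIP and by -0.11 (SE 0.078) between CT12 VIP and CT12 Veh, and CT16 VIP differed by 0.19 both from CT12 Veh and from CT10 (adjusted p = 0.393 and 0.264 by limma).

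Id4, which is known for roles in neural progenitors and astrocytes, passed no test at either probe. The brighter probe (ILMN_2678714) was detected on all 16 arrays and read 9.46, 9.38, 9.35 and 9.07 in CT16 VIP, against 9.28, 9.46, 9.33 and 9.29 in CT12 VIP. It read 9.38, 9.38, 9.56 and 9.59 in CT12 Veh and 9.34, 9.37, 9.61 and 9.56 in CT10. Its groups overlapped throughout. CT12 VIP differed from CT12 Veh by -0.14 (SE 0.071), and CT16 VIP differed from CT12 VIP by -0.027 (SE 0.086). These were -0.15 (SE 0.079) and 0.057 (SE 0.089), the second of the opposite sign, without the arrays under 10000 detected probes. CT16 VIP differed from CT10 by -0.15 (SE 0.085, adjusted p = 0.362 by limma), and by -0.050 (SE 0.091) without those arrays.

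The dimmer Id4 probe (ILMN_1232416, listed as Idb4) was detected on 13 of 16 arrays and differed from the brighter one in the sign of its later difference. It read 7.92, 8.04, 7.66 and 8.07 in CT16 VIP, against 7.58, 7.84, 7.68 and 7.61 in CT12 VIP. It read 7.92, 7.69, 7.91 and 7.96 in CT12 Veh and 7.86, 7.74, 7.82 and 7.78 in CT10. CT12 VIP differed from CT12 Veh by -0.20 (SE 0.077), and CT16 VIP differed from CT12 VIP by 0.25 (SE 0.092). These were -0.16 (SE 0.087) and 0.27 (SE 0.095) without the arrays under 10000 detected probes. CT16 VIP differed from CT10 by 0.12 (SE 0.084, adjusted p = 0.479 by limma), and by 0.18 (SE 0.086) without those arrays.

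**Figure D3:**
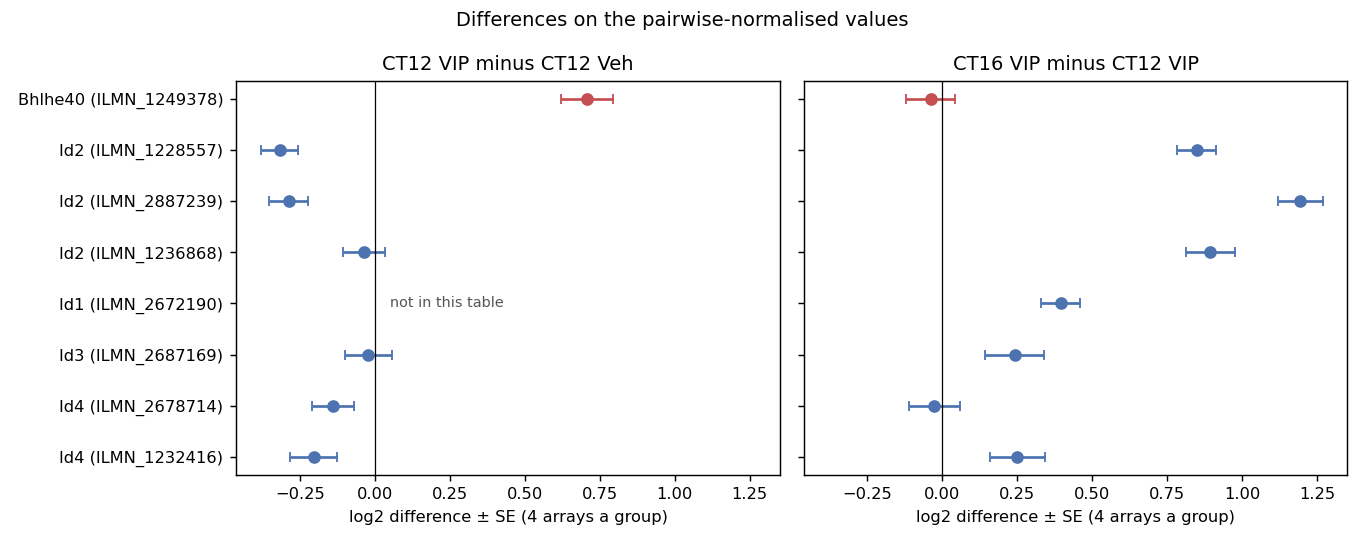
Difference of each member probe ± SE (horizontal axis, log2, 4 arrays a group) in CT12 VIP minus CT12 Veh and in CT16 VIP minus CT12 VIP, on the values normalised for each pair. At 2 h Bhlhe40 stood apart at 0.71, and at 6 h against 2 h the 3 Id2 probes lay between 0.85 and 1.19 with Bhlhe40 at -0.039.

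Named genes whose centred levels over the 16 arrays lay closest to those of Bhlhe40 were Pde4b, Gm8783, Tpm4, Stk40 and Stx11, at a root mean square difference of 0.117, 0.132, 0.150, 0.153 and 0.159 on the log2 scale. Pde4b, a cAMP phosphodiesterase, averaged 7.85 in CT10 and 8.05 in CT12 Veh slices, and it averaged 8.76 after 2 h and 8.72 after 6 h of VIP. Tpm4, a tropomyosin, averaged 7.57, 7.65, 8.37 and 8.49 in the same order of groups. Stk40 is annotated as a kinase, and Stx11 is a syntaxin of vesicle fusion. Like Bhlhe40, all 5 had higher means in both VIP groups than in the groups without VIP. Their choice by closeness to Bhlhe40 on these same arrays favours this.

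For Id2 (ILMN_1228557), the closest were Ddx21 (0.134), Iqgap2 (0.137), Eftud2 (0.138), Lmx1a (0.138) and Col2a1 (0.157). The Id2 probes ILMN_1228557 and ILMN_1236868 were 0.197 apart by the same measure. Ddx21, an RNA helicase of ribosome biogenesis, averaged 8.03 in CT10 and 8.12 in CT12 Veh slices, and it averaged 8.02 after 2 h and 8.58 after 6 h of VIP. Iqgap2, a scaffold protein, averaged 7.74, 7.82, 7.77 and 8.49 in the same order. Eftud2 is a subunit of the spliceosome, Lmx1a a LIM homeodomain factor and Col2a1 a fibrillar collagen. All 5 had their highest mean in CT16 VIP, which their choice by closeness to Id2 on these same arrays favours.

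The genes around these factors were described by lists, each gene by its probe with the highest mean, beside all named genes. After 2 h of VIP, 270 of 9581 named genes rose and 194 fell relative to CT12 Veh, with a median difference of -0.019. Of 10 measured genes of the E-box clock loop and its outputs, which the DEC proteins share with the clock, Per1 and Per2 rose, Dbp and Tef fell and 6 did not pass, with a median of -0.087. Per1, a negative limb gene of the clock, rose by 0.37 (SE 0.067, adjusted p = 0.00172 by limma). Per2, its paralogue, rose by 0.29 (SE 0.076, adjusted p = 0.0329 by limma). Dbp, a PAR bZIP activator under E-box control, fell by 0.32 (SE 0.060, adjusted p = 0.0022 by limma).

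The positive limb held 4 measured genes, of which the nuclear receptor genes Rora and Rorb rose at 2 h by 0.35 (SE 0.086) and 0.33 (SE 0.069), and 2 did not pass. Of 8 measured genes of the CREB and CREM feedback list, 5 rose and 0 fell, with a median of 0.76. Pde4d, another cAMP phosphodiesterase, rose by 1.40 (SE 0.12), Crem, whose locus also encodes the repressor ICER, by 1.18 (SE 0.074) and Nr4a1, an immediate early nuclear receptor, by 0.97 (SE 0.067). Pde4b, the gene closest to Bhlhe40 by profile, rose by 0.73 (SE 0.089). These lists and genes were chosen with earlier results of these arrays known.

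At 6 h against 2 h, 107 of 10258 named genes rose and 123 fell, with a median of 0.0061. The CREB and CREM feedback list then had 0 of 8 higher and 2 lower, Nr4a1 by -0.96 (SE 0.074) and Sik1, a kinase that restrains CREB coactivators, by -0.39 (SE 0.081), with a median of -0.11. Relative to CT12 Veh, Sik1 was 0.79 (SE 0.070) higher in CT12 VIP and 0.36 (SE 0.080) higher in CT16 VIP. In the E-box list, Nr1d2 (REV-ERB beta) fell by 0.47 (SE 0.083, adjusted p = 0.00786 by limma), Dbp fell by 0.45 (SE 0.063, adjusted p = 0.00129 by limma) and 7 of 9 did not pass. Of the 4 measured genes of the positive limb 0 passed by limma, with 1 at an unadjusted p under 0.05. Circadian time also differs between these groups.

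Partners and regulators of the Id proteins were largely without calls. The 2 measured E proteins (Tcf4 and Tcf12), which Id proteins bind, passed in neither comparison, and the differences of CT16 VIP from CT12 VIP were -0.066 (SE 0.086) and 0.063 (SE 0.096). The 3 measured Hes and Hey repressors, relatives of the DEC proteins, did not pass in either, although Hey1 fell by 0.56 in CT16 VIP relative to CT10 (SE 0.11, adjusted p = 0.00241 by limma). Of the proneural and lineage bHLH genes, 0 of 2 measured passed by limma at 2 h and 0 of 4 at 6 h against 2 h. At an unadjusted p under 0.05 these 3 lists held 1 gene at 2 h (Hey1) and 1 at 6 h against 2 h (Olig1).

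In the BMP and SMAD pathway, only 12 of the 29 listed genes were measured in CT16 VIP vs. CT12 VIP. Of these 12, 0 passed the limma test, with 1 at an unadjusted p under 0.05 and a median of -0.038. The part of BMP signalling in the Id2 values was not tested. The inhibitory SMAD gene Smad7, a direct target of the pathway, differed by 0.053 (SE 0.087), and the receptor gene Bmpr1a by -0.086 (SE 0.079). At 2 h, 2 of 13 fell and 0 rose. Bmpr1b, a type I BMP receptor, fell by 0.35 (SE 0.079, adjusted p = 0.0123 by limma) and Fstl1, a secreted follistatin-like protein, fell by 0.32 (SE 0.079, adjusted p = 0.0235 by limma).

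**Figure D4:**
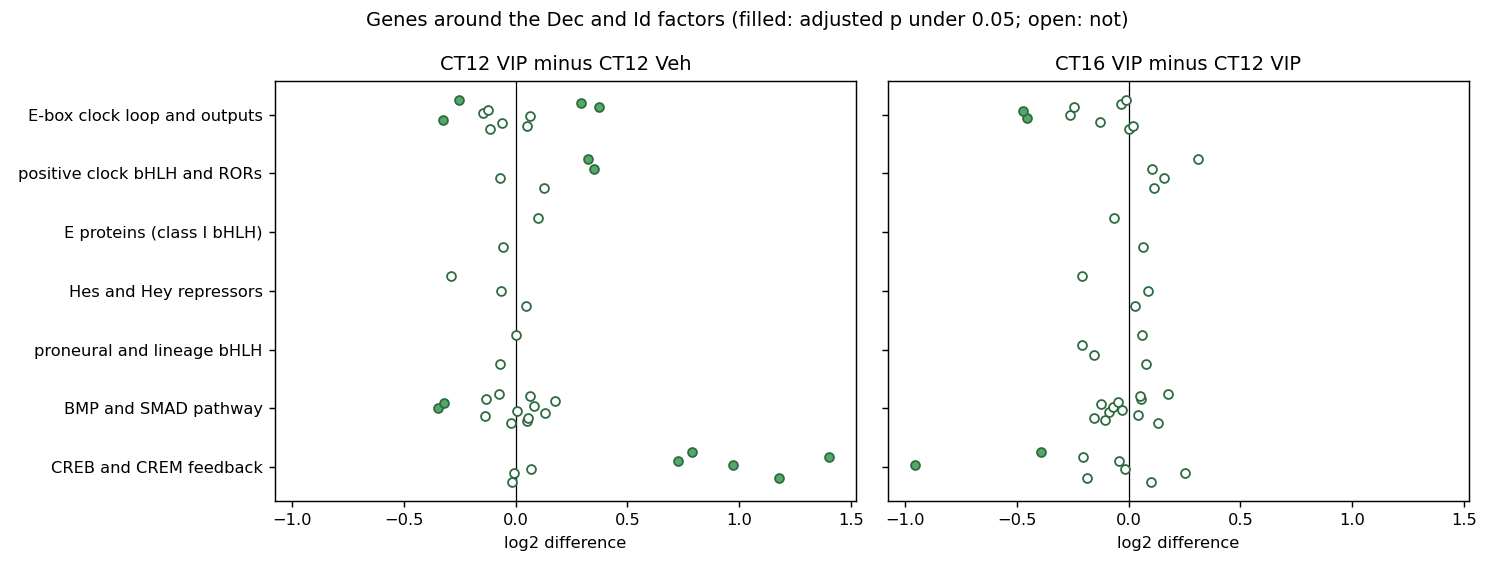
Difference of each measured gene of 7 lists (horizontal axis, log2) in CT12 VIP minus CT12 Veh and in CT16 VIP minus CT12 VIP, with filled points at an adjusted p under 0.05. The CREB and CREM feedback list had 5 of 8 genes higher at 2 h, and the BMP and SMAD list had 0 of 12 called between 6 h and 2 h.

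Markers of the cell types that also carry Id transcripts are given beside the Id values. Of 9 astrocyte markers 8 were measured, and 0 passed by limma in CT12 VIP vs. CT12 Veh or in CT16 VIP vs. CT12 VIP, with 1 in each at an unadjusted p under 0.05. Their summed linear level per array was 7187 to 8388 in CT16 VIP, 7578 to 8688 in CT12 VIP, 8265 to 8613 in CT12 Veh and 7741 to 9364 in CT10, so the CT16 VIP arrays, where Id2 was highest, reached the lowest sum. Aqp4, the water channel of astrocyte endfeet, fell by 0.53 in CT16 VIP relative to CT10 (SE 0.086, adjusted p = 0.000491 by limma), and Aldh1l1 fell by 0.28 (SE 0.070, adjusted p = 0.0173 by limma). Of 6 endothelial markers only Cldn5 was measured. Its linear level was 189 to 220 in CT16 VIP, 179 to 187 in CT12 VIP, 182 to 200 in CT12 Veh and 171 to 183 in CT10, so that the CT16 VIP arrays lay above those of CT12 VIP and CT10, and it was detected on 2 of 16 arrays. The part of endothelial cells in the Id1 result was not tested. Of 5 ependymal markers, 3 fell at 2 h and 0 rose, with Dynlrb2, a dynein light chain, at -0.47 (SE 0.075, adjusted p = 0.000465 by limma). Their summed linear level was 1592 to 1689 in CT12 VIP, 1810 to 2255 in CT12 Veh and 1451 to 1972 in CT10, which spanned CT12 VIP. Against CT10, 0 of 5 passed by limma in CT12 VIP or in CT16 VIP, with 0 and 2 at an unadjusted p under 0.05. Foxj1, the master factor of motile cilia, was detected on 4 of 16 arrays. In CT16 VIP relative to CT12 Veh the same 3 markers fell, Dynlrb2 by 0.59 (SE 0.13), Rarres2 by 0.57 (SE 0.12) and Tmem212 by 0.31 (SE 0.074), and 0 of 5 rose. There the summed linear level was 1311 to 1743 in CT16 VIP and 1810 to 2255 in CT12 Veh. Of 6 measured microglial markers, 2 fell in CT16 VIP relative to CT12 Veh and 0 rose, against 339 and 314 of 10620 named genes. These were Aif1, by 0.35 (SE 0.099), and P2ry12, by 0.41 (SE 0.11). The other 4 did not pass, with Csf1r at -0.11, C1qb at -0.13, C1qa at 0.054 and Cx3cr1 at 0.0039. The summed microglial level was 1303 to 1473 in CT16 VIP, 1510 to 1635 in CT12 Veh and 1475 to 1729 in CT10. Of the 9 neuronal markers, 1 rose at 2 h relative to CT12 Veh, Gad1, a GABA synthesis enzyme, by 0.32 (SE 0.082, adjusted p = 0.0327 by limma), and 0 fell. The summed neuronal level was 5181 to 5477 in CT12 VIP, 4737 to 5209 in CT12 Veh and 5089 to 5706 in CT10, which spanned CT12 VIP. Against CT10, Gad1 in CT12 VIP differed by 0.11 (SE 0.12, adjusted p = 0.806 by limma). The part of these cell types in the Bhlhe40 and Id values was not tested.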

How the data were processed

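RNA of organotypic SCN slices was measured on 16 Illumina MouseWG-6 v2 arrays, 4 per group, grouped as the labels state. The authors deposited raw bead intensities and detection p-values against the negative controls. The authors also deposited variance-stabilised values close to log2, made with lumi (version not given in the sources used here) by a filter on a detection p of 0.01 and quantile normalisation, for each of 2 pairs of groups and for all arrays.

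Comparisons were run with limma 3.58.1 (lmFit, eBayes) in R 4.3.3, 2-sided, with Benjamini-Hochberg adjustment over all probes at 0.05. CT12 VIP vs. CT12 Veh and CT16 VIP vs. CT12 VIP used the pairwise values and only their 8 arrays. The other comparisons used 1 fit of the 16 arrays on the values normalised together. Probes were named through Entrez identifier (13733 probes), accession (1254), unique older symbol (969) or the symbol of the platform table (777), and 3160 had no symbol in the tables used here. The fits were checked on simulated data. The number of arrays limits the precision.

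The members and lists were chosen with earlier results of these data known. The rule named every member probe, the 5 genes closest to Bhlhe40 and to Id2, and for each list the 3 called genes with the largest differences in each pairwise comparison. Hey1, Olig1, Tcf4, Tcf12, Smad7, Bmpr1a, Six6, Aqp4, Aldh1l1, Cldn5, Dynlrb2, Rarres2, Tmem212, Aif1, P2ry12, Csf1r, C1qb, C1qa, Cx3cr1, Gad1 and Foxj1 were named after their values were seen. Alternatives were the other normalised table, neqc, quantile-normalised log2 signals, a stricter detection filter, other arrays in the fit, the replicate number as a block, the mean of the probes of a gene and each array left out. The fit without arrays under 10000 detected probes was added after seeing the data. Further lists were the oligodendrocyte lineage, microglia, and fibroblast and mural markers. In CT12 VIP vs. CT12 Veh 1 of 6, 0 of 6 and 0 of 1 measured genes passed, and in CT16 VIP vs. CT12 VIP 0 of 6, 0 of 6 and 0 of 1. The qPCR of the study was not analysed here.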

Additional observations from a re-analysis of the deposited data

Results flagged for a closer look

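Within groups of 4 arrays, 2 of 72 combinations of a probe and a group held an array far from the other 3 by Dixon's criterion for the gap over the range, which chance gives in about 1 in 20. Both concern genes with profiles close to that of Bhlhe40, and no probe of a Dec or Id gene was among them. Pde4b read 8.87 on CT12 VIP 1, against 8.71 to 8.73 on the other CT12 VIP arrays, and CT12 VIP 1 is among the arrays with fewer than 10000 detected probes. Tpm4 read 7.72 on CT12 Veh 2, against 7.62 to 7.63 on the other CT12 Veh arrays, and CT12 Veh 2 was also the highest CT12 Veh array for Bhlhe40, at 9.30.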

How the results depend on the processing

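The count of probes called in CT12 VIP vs. CT12 Veh (738) was 452 with all arrays in 1 fit and 487 on neqc values, which moved the split of 480 higher and 258 lower to 356 and 96 and to 372 and 115. In CT16 VIP vs. CT12 VIP (342) it was 516 with all arrays in 1 fit and 175 on neqc values. In CT16 VIP vs. CT12 Veh (980) it was 534 without the arrays under 10000 detected probes, and in CT16 VIP vs. CT10 (1153) it was 566 with only those groups in the fit. Leaving out 1 array at a time gave 548 to 653, 189 to 454, 705 to 1404 and 823 to 1417 calls for these comparisons in turn, 372 to 531 for CT12 VIP vs. CT10 (460) and 0 to 4 for CT12 Veh vs. CT10 (1). The counts moved by over 1.5 times without CT12 VIP 2 (202), CT12 VIP 3 (197) or CT12 VIP 4 (189) in CT16 VIP vs. CT12 VIP, and without CT12 Veh 4 (4) in CT12 Veh vs. CT10. The cause was not tested.

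The replicate numbers did not pair the arrays, with correlations of same-numbered deviations between -0.34 and 0.27, and 3 of 8, 0 of 8, 0 of 8, 0 of 6, 3 of 6 and 2 of 6 arrays correlated best with their own number. With the replicate number as a block the count rose to 870 in CT12 VIP vs. CT12 Veh. It was 159 in CT16 VIP vs. CT12 VIP and 773 in CT16 VIP vs. CT12 Veh. Against CT10 it was 259 in CT12 VIP, 470 in CT16 VIP and 0 in CT12 Veh. The fits against CT10 also left out arrays whose replicate number was not shared by both groups, so these counts do not reflect the block alone.

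Of the differences of single member probes, 13 alternatives changed the sign of a tested one, all within its SE. They include Id1 in CT12 Veh vs. CT10, where it was detected on no array, so its values are not given. With 1 array left out, Id3 lay between -0.097 and 0.016 in CT12 VIP vs. CT10 and between -0.055 and 0.030 in CT12 Veh vs. CT10, Id4 (ILMN_2678714) between -0.033 and 0.059 and Id1 between -0.077 and 0.012 in CT12 Veh vs. CT10, and Id4 (ILMN_1232416) between -0.0051 and 0.14 in CT16 VIP vs. CT12 Veh. Id3 was 0.0052 with the replicate block in CT12 VIP vs. CT10 and 0.00023 without the arrays under 10000 detected probes in CT12 Veh vs. CT10. A further 35 differences moved by more than the spread between arrays, among them Id4 (ILMN_2678714) in CT16 VIP vs. CT12 VIP, at 0.11 on the mean of its probes. The Id2 calls at 2 h were lost on neqc values and on log2 signals. Id1 gave no value on neqc or log2 signals in CT12 VIP vs. CT10 and CT12 Veh vs. CT10, where it was detected on no array. Signal near background limits Id1, Id3 and the dimmer Id4 probe.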
